A study of Saccharomyces cerevisiae with 12 samples.

Results

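The genes examined encode the subunits of the 3 nuclear RNA polymerases of budding yeast, Saccharomyces cerevisiae. They were taken as a list of 31 gene symbols, and all 31 were found among the 5636 genes named on the array. Of these, 7 belong to polymerase I only, 7 to polymerase II only and 10 to polymerase III only, 2 are shared by polymerases I and III, and 5 are shared by all 3 enzymes. On 12 Agilent arrays, total RNA of 3 deletion strains was set against wild-type RNA, each strain on 4 of them, and all cultures, wild type included, had 2% glucose. Their labels read gcr1 null, nup84 null and nup84gcr1 null, and the last is called the double null here. GCR1 encodes a transcriptional activator of glycolytic and ribosomal protein genes, and NUP84 encodes a scaffold protein of the nuclear pore. Arrays 1 and 2 of each strain carried the deletion strain in Cy5 and arrays 3 and 4 carried it in Cy3, per the labels. Strain background, growth phase and the number of clones per deletion are not given in the sources used here.

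Polymerase I transcribes the large ribosomal RNA precursor, polymerase II transcribes messenger RNA, and polymerase III makes transfer RNA and the smallest ribosomal RNA. Each enzyme has a pair of large catalytic subunits, an assembly platform of alpha-like subunits, a stalk and a zinc ribbon subunit, joined by the subunits that all of them share. In yeast, genes for polymerases I and III are known to be transcribed together with genes of ribosome assembly, in step with growth.

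Every value below is a log2 ratio of deletion strain over wild type, centred on the median of all genes of the array, so that -1 stands for a halved share of the RNA. The error is the moderated standard error (SE) of limma, pooled over the strains, for n = 2 samples per strain. The design text calls the samples biological replicates and says nothing of separate cultures, so the p-values measure the spread between these samples. NUP84 read -3.19 ± 0.24 in the nup84 null and -2.74 ± 0.24 in the double-null-labelled strain (SE, n = 2). GCR1 went against its labels, at 1.08 ± 0.21 in the gcr1-null-labelled strain (adjusted p = 0.00453) and 0.78 ± 0.21 in the double-null-labelled strain (adjusted p = 0.0174). The place of the GCR1 probes relative to the deleted part is not known, so these strains are named by their labels and every direction drawn from them rests on those labels. Over all genes, arrays of a strain correlated at 0.469 to 0.891. Of the 31 subunit genes, 22 had 2 probes and 9 had 1, and the largest gap between the probes of a gene was 0.355, for RPC10 in the nup84 null.

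Among the polymerase subunits many transcripts were lower than in wild type in every strain. By limma 0 subunits were called higher in any strain, and 0 were higher at an unadjusted p under 0.05. In the gcr1-null-labelled strain 23 of 31 subunits fell, where 17.7% of all genes were called lower and 17.2% higher. Of the 31, 12 fell in the nup84 null, where 8.09% of all genes were called lower and 8.61% higher. In the third strain, labelled double null, 22 of 31 fell, where 18.9% of all genes were called lower and 20.5% higher. The median log2 ratio of the 31 genes was -0.97, -0.65 and -0.996 in these strains in that order, which is 0.509, 0.639 and 0.501 of the wild-type level. The median over all 5636 genes was 0.03, -0.01 and 0.02. In RNA of whole cultures, less transcript per cell and fewer cells with the transcript cannot be told apart.

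The count in the gcr1-null-labelled strain was 14 without its arrays 1 and 3 and 4 without its arrays 2 and 4. The count in the nup84 null was 0 without its arrays 1 and 3 or 2 and 4, and 26 without its arrays 1 and 4 or 2 and 3, a setting that changes the assumed pairing of arrays as well. It was also 27 without arrays 1 and 4 or 2 and 3 of either other strain, and 18 without arrays 1 and 3 or 2 and 4 of the double-null-labelled strain. The count of subunits lower in the double-null-labelled strain lay between 19 and 29 under every such omission. Without its arrays 2 and 3, RPO21 was called higher there, at 0.37. The shares of all genes called moved with these counts, in the double-null-labelled strain as well. Where the count in the nup84 null was 0, nearly all calls among all genes were lost too. In the gcr1-null-labelled strain 34.8% of all genes were called with all arrays, 15.9% without its arrays 1 and 3 and 9.49% without its arrays 2 and 4. In the nup84 null 16.7% were called with all arrays, 33.7% in the setting that gave 18, 61.6% to 63% in those that gave 26 and 73.3% to 76.3% in those that gave 27. All 31 subunits had a mean below 0 in the gcr1-null-labelled strain, 29 in the nup84 null and 30 in the double-null-labelled strain, against 48.4%, 50.4% and 48.6% of all genes.

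**Figure D1:**
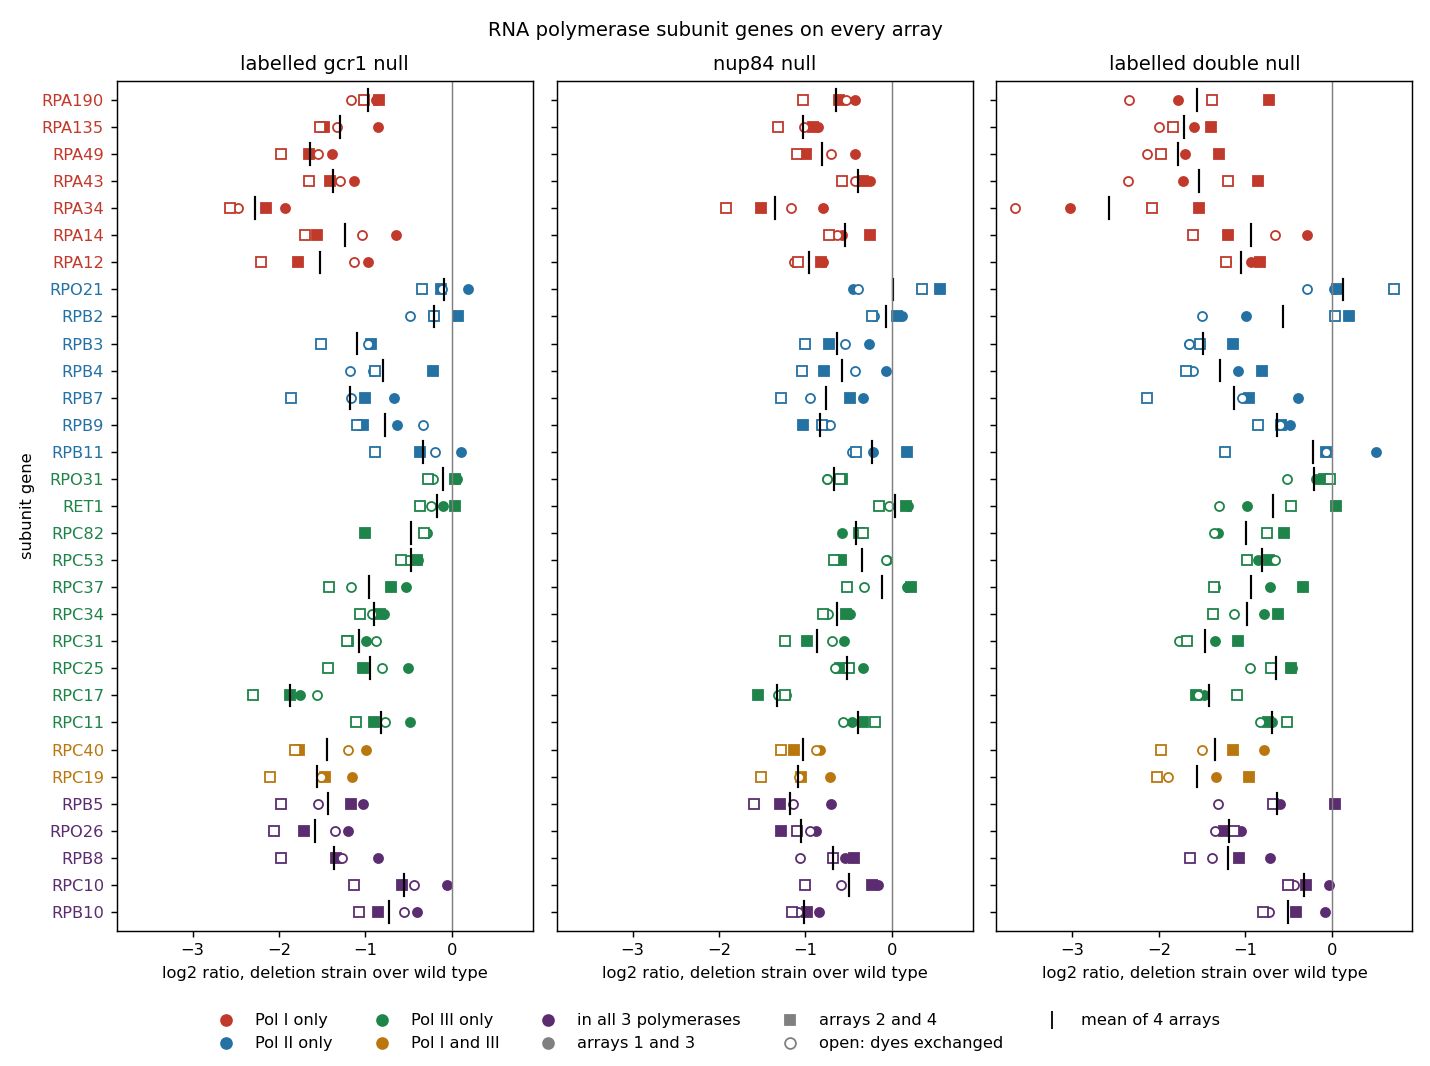
Log2 ratio of deletion strain over wild type (x axis) for each of the 31 subunit genes (y axis) on each of the 4 arrays of the 3 strains. Circles are arrays 1 and 3, squares arrays 2 and 4, open symbols arrays with exchanged dyes, black ticks the mean of the 4 arrays, and colours the polymerase a subunit belongs to. The 7 genes of polymerase I alone lie left of 0 on every array, while RPO21, RPB2, RPO31 and RET1 have means close to 0 in the gcr1-null-labelled strain.

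All 7 subunits of polymerase I alone fell in the gcr1-null-labelled strain and in the double-null-labelled strain, and 4 of 7 fell in the nup84 null, with medians of -1.37, -1.56 and -0.80. RPA34, which pairs with RPA49 in a dimer related to the polymerase II factor TFIIF, had the lowest mean of all 31 subunits in each strain. It read -1.93, -2.15, -2.48 and -2.57 on arrays 1 to 4 of the gcr1-null-labelled strain, -0.79, -1.51, -1.16 and -1.92 in the nup84 null, and -3.03, -1.54, -3.66 and -2.08 in the double-null-labelled strain. All 12 values were below 0, and in the double-null-labelled strain arrays 1 and 3 were lower than arrays 2 and 4. The means were -2.28 ± 0.35 (SE, n = 2; adjusted p = 0.00165), -1.35 ± 0.35 (adjusted p = 0.0325) and -2.58 ± 0.35 (adjusted p = 0.000734), or 4.87-fold, 2.54-fold and 5.97-fold below wild type. Its partner RPA49 fell to -1.64 ± 0.22, -0.80 ± 0.22 and -1.78 ± 0.22, with adjusted p = 0.000927, 0.0411 and 0.000527.

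The catalytic subunits of polymerase I fell too. RPA135, the second largest, read -0.85, -1.48, -1.33 and -1.53 on arrays 1 to 4 of the gcr1-null-labelled strain, -0.85, -0.91, -1.02 and -1.32 in the nup84 null and -1.60, -1.40, -1.998 and -1.84 in the double-null-labelled strain. The arrays of the nup84 null and of the double-null-labelled strain did not overlap for this gene, a separation not counted over all genes. The double-null-labelled strain was lower than the nup84 null by -0.68 ± 0.30, which did not pass (adjusted p = 0.313 by limma). The RPA135 means of -1.30, -1.02 and -1.71 (each ± 0.21) passed in every strain (adjusted p = 0.00213, 0.0152 and 0.000492). RPA190, the largest subunit, fell to -0.97 ± 0.27 in the gcr1-null-labelled strain (adjusted p = 0.0212) and -1.56 ± 0.27 in the double-null-labelled strain (adjusted p = 0.00221), against -0.65 ± 0.27 in the nup84 null (adjusted p = 0.131).

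RPA190 and RPA43 are neighbours in the yeast annotation (R64), with locus tags YOR341W and YOR340C that place them on opposite strands. RPA43 is the stalk subunit that binds the initiation factor Rrn3. In the double-null-labelled strain RPA190 read -1.78, -0.73, -2.35 and -1.38 on arrays 1 to 4, and RPA43 read -1.72, -0.85, -2.35 and -1.20. The pair ran side by side there, low on arrays 1 and 3 and higher on arrays 2 and 4. RPA43, in the gcr1-null-labelled strain, was the lower of the pair on every array, at -1.13, -1.41, -1.29 and -1.65 against -0.87, -0.85, -1.16 and -1.02. For the nup84 null RPA43 was the higher on every array, at -0.25, -0.33, -0.43 and -0.58 against -0.42, -0.61, -0.53 and -1.02. RPA43 fell in the gcr1-null-labelled strain (-1.37 ± 0.27; adjusted p = 0.00473) and in the double-null-labelled strain (-1.53 ± 0.27; adjusted p = 0.00243), and its -0.40 ± 0.27 in the nup84 null did not pass (adjusted p = 0.334).

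RPA14, the stalk partner of RPA43, and RPA12, the zinc ribbon subunit for RNA cleavage, were closer to 0 in the double-null-labelled strain than in the gcr1-null-labelled strain. RPA14 read -1.24 ± 0.28 in the latter and -0.94 ± 0.28 in the former (adjusted p = 0.0103 and 0.0295). RPA12 read -1.52 ± 0.25 and -1.05 ± 0.25 (adjusted p = 0.0023 and 0.0108), and also fell in the nup84 null, to -0.96 ± 0.25 (adjusted p = 0.0339). The differences between these strains did not pass for either gene.

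The subunits that polymerases I and III share, RPC40 and RPC19, form the alpha-like platform on which these enzymes assemble. RPC40 fell to -1.45, -1.03 and -1.35 (each ± 0.24; adjusted p = 0.00262, 0.0246 and 0.00304) in the gcr1-null-labelled strain, the nup84 null and the double-null-labelled strain. RPC19 fell to -1.56, -1.09 and -1.55 (each ± 0.22; adjusted p = 0.0011, 0.0143 and 0.000913). RPC19 read between -0.71 and -2.11 over all 12 arrays and RPC40 between -0.79 and -1.97, so that every array of every strain showed less than the wild-type level.

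Of the 5 subunits common to all enzymes, 4 fell in the gcr1-null-labelled strain, 3 in the nup84 null and 2 in the double-null-labelled strain, with medians of -1.36, -1.01 and -0.64. RPO26, which helps to hold the largest subunit in place, fell in each strain, to -1.58 ± 0.22, -1.05 ± 0.22 and -1.19 ± 0.22 (adjusted p = 0.00114, 0.0172 and 0.00366). RPB5, the jaw subunit, read -1.03, -1.17, -1.55 and -1.98 on arrays 1 to 4 of the gcr1-null-labelled strain and -0.70, -1.29, -1.14 and -1.60 in the nup84 null. RPB5 in the double-null-labelled strain read -0.59, 0.04, -1.31 and -0.68, of which array 2 lay at the wild-type level. RPB5 thus fell in both single strains (-1.43 ± 0.24 and -1.18 ± 0.24; adjusted p = 0.00268 and 0.0153) and its -0.64 ± 0.24 in the double-null-labelled strain did not pass (adjusted p = 0.0676).

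RPB10, a small zinc-binding subunit, showed the same order of calls as RPB5. It fell to -0.72 ± 0.21 in the gcr1-null-labelled strain and -1.01 ± 0.21 in the nup84 null (adjusted p = 0.0294 and 0.0164) and read -0.50 ± 0.21 in the double-null-labelled strain (adjusted p = 0.0923). RPB8, a further shared subunit, fell to -1.36 ± 0.23 and -1.20 ± 0.23 in the strains labelled as lacking GCR1 (adjusted p = 0.00254 and 0.00375), against -0.68 ± 0.23 in the nup84 null (adjusted p = 0.0749). RPC10, another small zinc-binding subunit, read -0.55, -0.49 and -0.32 and passed in no strain (adjusted p = 0.0918, 0.168 and 0.297).

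Among the 7 subunits of polymerase II alone, 4 fell in the gcr1-null-labelled strain, 1 in the nup84 null and 3 in the double-null-labelled strain, with medians of -0.77, -0.58 and -0.63. RPO21, the largest subunit with the carboxy-terminal repeat domain, stayed near wild type. It read 0.18, -0.12, -0.11 and -0.34 on arrays 1 to 4 of the gcr1-null-labelled strain, -0.45, 0.56, -0.39 and 0.36 in the nup84 null, and 0.02, 0.06, -0.29 and 0.72 in the double-null-labelled strain. The values had both signs in each strain, and the means of -0.10, 0.02 and 0.13 (each ± 0.26) did not pass (adjusted p = 0.802, 0.97 and 0.728). In the nup84 null arrays 1 and 3 of RPO21 lay below 0 and arrays 2 and 4 above it.

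RPB2, the second largest subunit, read -0.99, 0.20, -1.50 and 0.04 in the double-null-labelled strain, where arrays 1 and 3 were low and arrays 2 and 4 were not. Its means of -0.21, -0.06 and -0.56 (each ± 0.30) did not pass in any strain (adjusted p = 0.637, 0.912 and 0.176). RPB3 and RPB11, the alpha-like pair of polymerase II, were not called alike, and the difference between these genes was not tested. Neither passed in the nup84 null, where RPB3 read -0.63 ± 0.22 (adjusted p = 0.0829 by limma). RPB3 fell to -1.09 ± 0.22 in the gcr1-null-labelled strain and -1.49 ± 0.22 in the double-null-labelled strain (adjusted p = 0.00564 and 0.00113), with all arrays there between -0.93 and -1.66. RPB11 read -0.34, -0.23 and -0.21 (each ± 0.27; adjusted p = 0.365, 0.59 and 0.564), with arrays of both signs in each strain.

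The polymerase II stalk is formed by RPB4 and RPB7. RPB4 fell to -0.80 ± 0.24 and -1.29 ± 0.24 (adjusted p = 0.0313 and 0.00336), and RPB7 to -1.18 ± 0.26 and -1.13 ± 0.26 (adjusted p = 0.0085 and 0.00897), in the strains labelled gcr1 null and double null. Their values in the nup84 null, -0.58 and -0.76, did not pass (adjusted p = 0.133 and 0.0776). RPB9 is the zinc ribbon subunit that acts in start site choice and fidelity. Among the subunits of polymerase II alone, it was the only one called in the nup84 null, at -0.83 ± 0.22 (adjusted p = 0.0365). It also fell in the gcr1-null-labelled strain, to -0.77 ± 0.22 (adjusted p = 0.0261), and just missed the threshold in the double-null-labelled strain, at -0.63 ± 0.22 (adjusted p = 0.0503).

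Of the 10 subunits of polymerase III alone, 6 fell in the gcr1-null-labelled strain, 2 in the nup84 null and 8 in the double-null-labelled strain, with medians of -0.86, -0.47 and -0.87. RPC17, a stalk subunit that contacts the initiation factor Brf1, was the lowest of them in both single strains. It read -1.75, -1.88, -1.56 and -2.30 on arrays 1 to 4 of the gcr1-null-labelled strain, -1.22, -1.54, -1.31 and -1.24 in the nup84 null, and -1.47, -1.57, -1.55 and -1.10 in the double-null-labelled strain. All 12 values were below -1, and the double-null-labelled strain overlapped both single strains. The means were -1.87, -1.33 and -1.42 (each ± 0.21; adjusted p = 0.00038, 0.0069 and 0.00114). RPC25, its partner in the stalk, fell to -0.95 ± 0.22 and -0.64 ± 0.22 in the strains labelled gcr1 null and double null (adjusted p = 0.0104 and 0.0445), against -0.52 ± 0.22 in the nup84 null (adjusted p = 0.136).

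RPC82, RPC34 and RPC31 form the trimer that polymerase III needs to start transcription. RPC31 fell in every strain, to -1.07, -0.87 and -1.47 (each ± 0.22; adjusted p = 0.00584, 0.0297 and 0.00115). RPC34 fell to -0.90 ± 0.19 and -0.98 ± 0.19 in the strains labelled gcr1 null and double null (adjusted p = 0.00771 and 0.00469), against -0.64 ± 0.19 in the nup84 null (adjusted p = 0.056). RPC82 was called only in the double-null-labelled strain, at -0.996 ± 0.24 (adjusted p = 0.0103), against -0.47 and -0.42 in the others (adjusted p = 0.155 and 0.257). The gcr1-null-labelled value holds 1 low array, array 2 at -1.0, against -0.28 to -0.32 on the others, and the test of RPC82 between strains did not pass.

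The large catalytic subunits of polymerase III passed in no strain. RPO31, the largest, read 0.06, 0.03, -0.22 and -0.28 on arrays 1 to 4 of the gcr1-null-labelled strain, -0.75, -0.58, -0.75 and -0.60 in the nup84 null and -0.18, -0.08, -0.52 and -0.02 in the double-null-labelled strain. All 4 arrays of the nup84 null lay below every array of the other strains for this gene, a separation not counted over all genes. Against the nup84 null, the gcr1-null-labelled and double-null-labelled strains differed by 0.57 and 0.47 (each ± 0.285). Neither difference passed (adjusted p = 0.48 and 0.466 by limma). The means of RPO31 against wild type, -0.10, -0.67 and -0.20 (each ± 0.20), did not pass (adjusted p = 0.73, 0.0537 and 0.466). RET1, the second largest, read -0.17, 0.04 and -0.67 (each ± 0.25; adjusted p = 0.647, 0.926 and 0.0614).

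RPC53 and RPC37 form the TFIIF-like dimer of polymerase III, known for its part in termination. RPC37 fell to -0.96 ± 0.20 in the gcr1-null-labelled strain and to -0.94 ± 0.20 in the double-null-labelled strain (adjusted p = 0.00664 and 0.00651). In the nup84 null its arrays read 0.18, 0.22, -0.32 and -0.52, positive in one dye orientation and negative in the other, with a mean of -0.11 ± 0.20 (adjusted p = 0.746). RPC53 passed in the double-null-labelled strain (-0.80 ± 0.22; adjusted p = 0.0187) and read -0.47 and -0.34 in the others (adjusted p = 0.125 and 0.308). RPC11, the RNA cleavage subunit, fell to -0.81 ± 0.21 and -0.69 ± 0.21 in the strains labelled gcr1 null and double null (adjusted p = 0.0165 and 0.0288), against -0.39 in the nup84 null (adjusted p = 0.234).

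Set out by structural position, the polymerase I member had the lowest mean at 4 of 5 positions in the gcr1-null-labelled strain and at 4 of 5 in the double-null-labelled strain. The positions were the largest subunit, the second largest, the larger and the smaller stalk subunit and the zinc ribbon. The exception in both strains was the smaller stalk subunit, where RPC17 of polymerase III was lowest. Within the nup84 null polymerase I was lowest at 2 positions, polymerase II at 1 and polymerase III at 2. The range across the homologues of the largest subunit was 0.88, 0.69 and 1.69 in the gcr1-null-labelled strain, the nup84 null and the double-null-labelled strain, and that of the larger stalk subunit 0.42, 0.37 and 0.89. These orders describe the means, and differences between genes were not tested.

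**Figure D2:**
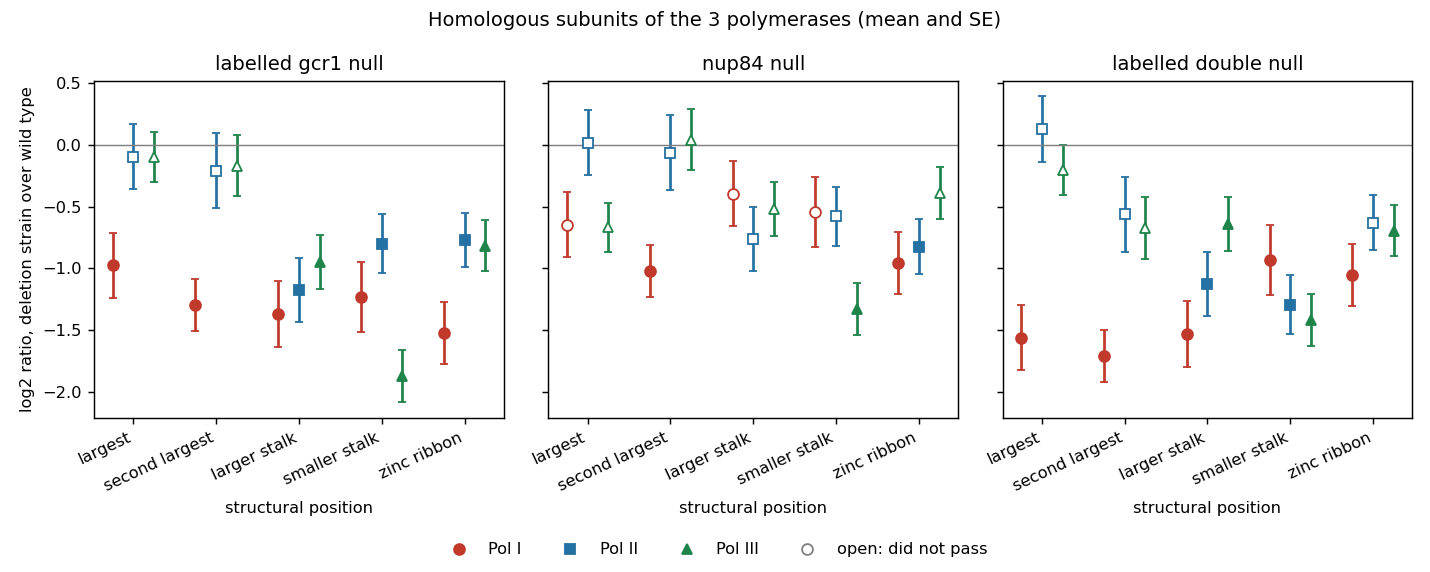
Log2 ratio of deletion strain over wild type (y axis) of homologous subunits at 5 structural positions (x axis) in the 3 strains. Circles are polymerase I, squares polymerase II and triangles polymerase III, bars are the SE pooled over the strains (n = 2), and open symbols did not pass an adjusted p of 0.05. RPA190 and RPA135 lie below their homologues in both strains labelled as lacking GCR1, at -0.97 and -1.30 and at -1.56 and -1.71. In the nup84 null RPA135 is lowest too, at -1.02, and RPA190 at -0.65 lies beside RPO31 at -0.67.

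Across the strains, 9 subunits fell in all 3. They were RPA135, RPA49, RPA34, RPA12, RPC31, RPC17, RPC40, RPC19 and RPO26. Of all genes 6.76% were lower in all 3 strains. All 9 subunits serve polymerase I or III, as do 24 of the 31. With the length correction RPA190, RPB9 and RPB10 also passed in all 3 strains, RPB9 being a subunit of polymerase II alone. RPA34 then no longer passed in the nup84 null (adjusted p = 0.0842). A further 11 fell in the strains labelled gcr1 null and double null, 2 (RPC82 and RPC53) in the double-null-labelled strain alone by the calls, and 3 (RPB9, RPB5 and RPB10) in the single strains. The 6 that passed in no strain were RPO21, RPB2, RPB11, RPO31, RET1 and RPC10. These call patterns are no test of a difference between strains, and only the pattern of all 3 strains was counted over all genes.

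When the strains were compared with each other, limma called 0 of 31 subunits in each comparison. Between the strains labelled double null and gcr1 null the median difference was 0.02, 0% of all genes were called, and 1 subunit had an unadjusted p under 0.05. That subunit was RPB5, higher by 0.80 ± 0.34 in the double-null-labelled strain (unadjusted p = 0.0469; adjusted p = 0.944). Between the double-null-labelled strain and the nup84 null the median difference was -0.39, 0.745% of all genes were called, and 7 subunits had an unadjusted p under 0.05. Of these 5 were polymerase I subunits, among them RPA34 at -1.23 ± 0.49 and RPA43 at -1.14 ± 0.37 (adjusted p = 0.283 and 0.199). Between the gcr1-null-labelled strain and the nup84 null the median difference was -0.33 with 0.515% of all genes called, and RPA43, RPA49 and RPC37 had an unadjusted p under 0.05 (adjusted p = 0.314, 0.301 and 0.225). With the arrays paired as 1 with 4 and 2 with 3, these comparisons called 16, 23 and 21 subunits, where 41.5%, 63.6% and 55.9% of all genes were called. Of the subunits, 10, 20 and 19 were then lower and 6, 3 and 2 higher. With 4 arrays as replicates they called 0, 3 and 1, where 1.17%, 9.26% and 7.11% of all genes were called, and without arrays 2 and 4 of the double-null-labelled strain its comparison with the nup84 null called 6, where 20.3% of all genes were called. The comparison of the single strains called 1 without arrays 1 and 3 or 2 and 4 of that strain, and omissions that imply the second pairing gave 7 to 23 over the 3 comparisons, where 26.4% to 61.2% of all genes were called.

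The double-null-labelled strain was also set against the sum of the single strains. The difference was above 0 for 28 of 31 subunits, with a median of 0.61, while 48.8% of all genes lay below 0, and limma called 0 subunits and 0% of all genes. RPB2, RET1 and RPC82 were the exceptions. The subunits were low in both single strains (medians of -0.975 and -0.646), while all genes hold raised and lowered ones. The share of all genes is thus no matched yardstick for the sign of this difference. The unadjusted p was under 0.05 for 8 subunits, all with a positive difference. The lowest were those of RPC17 (1.78 ± 0.36; unadjusted p = 0.000957; adjusted p = 0.104) and RPB5 (1.98 ± 0.42; unadjusted p = 0.00126; adjusted p = 0.107). The count was 9 once the arrays were scaled to a common spread, 7 with 4 arrays as replicates, and 3 and 4 without arrays 1 and 3 or 2 and 4 of the double-null-labelled strain. Under omissions that imply the second pairing it was 21 to 23, where 55.8% to 62.3% of all genes were called, and the settings that gave 9, 7, 3 and 4 called 11.1%, 11.6%, 3.9% and 12.8% of all genes.

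The samples of a strain were unequal, and the inequality ran with gene length. Arrays 1 and 3 were read as sample 1 and arrays 2 and 4 as sample 2. In the double-null-labelled strain the difference between samples had an SD of 0.587 over the 31 subunits, against 0.308 in the gcr1-null-labelled strain and 0.328 in the nup84 null. RPA34 read -3.34 in sample 1 and -1.81 in sample 2 of the double-null-labelled strain, RPB2 read -1.24 and 0.12, and RET1 read -1.14 and -0.21. RPA14 went the other way, at -0.47 and -1.40, and so did RPB11, at 0.23 and -0.65.

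Coding lengths of all 31 subunits and all 5636 genes were taken from annotation R64. Across all genes, the difference of sample 1 minus sample 2 correlated with coding length at Spearman's rho = -0.396 in the double-null-labelled strain, -0.447 in the gcr1-null-labelled strain and -0.195 in the nup84 null. Over the 31 subunits rho was -0.652, -0.675 and 0.074. Genes share arrays and are not independent, so these are descriptions. Genes longer than 3000 bases had medians of -0.52 in sample 1 and 0.40 in sample 2 of the double-null-labelled strain, and the 6 subunit genes of that length, which are the largest and second largest subunits, had medians of -1.19 and -0.13. RPA43, with 981 bases, and RPA34, with 702, were lower in sample 1, while genes over 500 and up to 1000 bases had a median difference of 0.39.

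The part of length in the subunit values was measured by subtracting from each array its smooth trend on coding length, an alternative added after the data were seen. The counts of subunits called lower were then 23, 13 and 25 in the gcr1-null-labelled strain, the nup84 null and the double-null-labelled strain, against 23, 12 and 22 before. Calls rose among all genes too, to 38.4%, 19.9% and 44.4% in the same order, against 34.8%, 16.7% and 39.5% before. In the nup84 null RPA190 (-0.89; adjusted p = 0.02) and RPO31 (-0.90; adjusted p = 0.0217) passed after this step, and RPA34 no longer did (-1.17; adjusted p = 0.0842). In the gcr1-null-labelled strain RPC82 passed (-0.63; adjusted p = 0.0447) and RPB4 did not (-0.59; adjusted p = 0.101), and in the double-null-labelled strain RET1, RPB9 and RPB10 passed as well (adjusted p = 0.0242, 0.0115 and 0.0122). The SD of the sample difference over all genes of the double-null-labelled strain moved from 0.807 to 0.719.

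**Figure D3:**
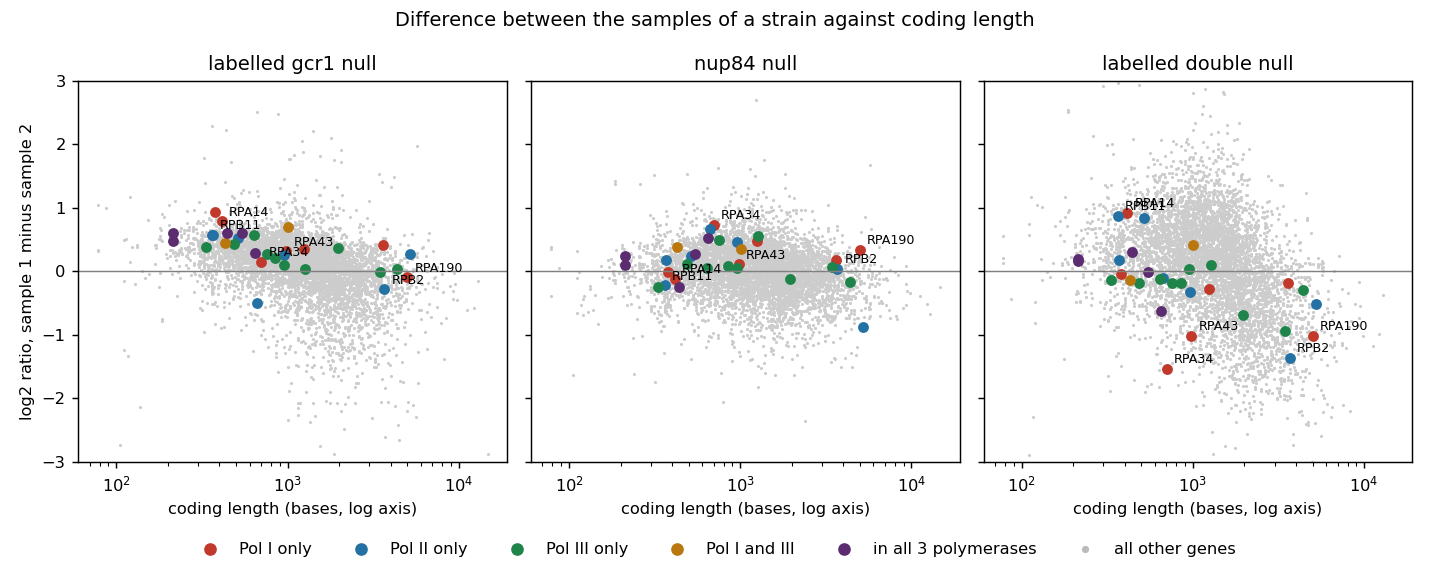
Log2 ratio of sample 1 (arrays 1 and 3) minus sample 2 (arrays 2 and 4) on the y axis against coding length in bases on a log x axis, for the 3 strains. Grey points are all other genes, of which 1, 4 and 11 lie outside the y axis in the panels from left to right, and coloured points are the 31 subunit genes. In the double-null-labelled strain RPA190 and RPB2 lie low among the long genes, RPA34 and RPA43 lie low among shorter genes, and RPA14 and RPB11 lie high.

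The dye orientation moved with the values too. Averaged over arrays 1 and 2, the subunits read higher than over arrays 3 and 4 by a median of 0.27 in the gcr1-null-labelled strain, 0.26 in the nup84 null and 0.42 in the double-null-labelled strain, against 0.17, 0.13 and 0.22 for all genes. Each sample mean holds an array of either orientation. RPC37 and RPB7 had differences of 0.68 in the gcr1-null-labelled strain. The largest of any subunit was 0.91, for RPB7 in the double-null-labelled strain, where its arrays ran from -2.14 to -0.39.

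Genes of factors that work with the polymerases were counted in 6 lists, whose rates were not tested against those of the subunits. Of 9 polymerase I initiation factor genes, 1 fell in the gcr1-null-labelled strain, 2 fell in the nup84 null, and 3 fell and 1 rose in the double-null-labelled strain, with medians of -0.22, -0.02 and -0.26. HMO1, an HMG-box protein that binds ribosomal DNA and ribosomal protein gene promoters, fell in each strain, to -1.18, -0.93 and -1.20 (each ± 0.24; adjusted p = 0.00575, 0.0322 and 0.00481). RRN10, of the upstream activating factor, rose in the double-null-labelled strain to 1.12 ± 0.20 (adjusted p = 0.00281), and RRN9 of the same factor fell to -1.01 ± 0.28 (adjusted p = 0.0197). RRN9 read -1.56 in sample 1 and -0.46 in sample 2 of that strain. Of 10 polymerase III factor genes, which encode TFIIIA, TFIIIB and TFIIIC subunits and the repressor Maf1, 1 fell in the gcr1-null-labelled strain and 0 passed by limma in either other strain (0 in the nup84 null and 3 in the double-null-labelled strain at an unadjusted p under 0.05, 2 of them lower and 1 higher), with medians of 0.06, 0.04 and -0.09.

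SPT15 encodes the TATA-binding protein, which all 3 polymerases use. It read -1.26, -1.25, -1.50 and -1.81 on arrays 1 to 4 of the gcr1-null-labelled strain, -0.71, -1.09, -1.02 and -1.25 in the nup84 null and -1.63, -1.26, -2.08 and -1.70 in the double-null-labelled strain. All 12 values were below 0, and the means of -1.46, -1.02 and -1.67 (each ± 0.21) passed in each strain (adjusted p = 0.0013, 0.0157 and 0.000548). In the list of 18 general factors of polymerase II that includes it, 3 fell and 2 rose in the gcr1-null-labelled strain, 2 fell in the nup84 null, and 6 fell and 1 rose in the double-null-labelled strain, with medians of 0.01, -0.21 and -0.11. The other general factors with the largest changes in the double-null-labelled strain were RAD3, a TFIIH helicase gene, at -1.01 ± 0.31, and TOA2, a TFIIA subunit gene, at -0.83 ± 0.24 (adjusted p = 0.0293 and 0.023). Arrays 1 to 4 of RAD3 read -1.56, -0.33, -1.83 and -0.31 there, so that sample 1 had -1.70 and sample 2 had -0.32. TOA2 ran the other way, at -0.54 and -1.11.

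Mediator, the complex of 25 genes here that links activators to polymerase II, had medians of -0.04, -0.02 and -0.02. In it 3 genes fell in the gcr1-null-labelled strain, 1 rose in the nup84 null, and 2 rose in the double-null-labelled strain, MED8 to 1.24 ± 0.23 and SRB6 to 0.60 ± 0.20 (adjusted p = 0.00368 and 0.0435). SRB6 was among those that fell in the gcr1-null-labelled strain, at -0.60 ± 0.20 (adjusted p = 0.0479). Of 13 elongation factor genes of polymerase II, 1 fell and 1 rose in the gcr1-null-labelled strain, 1 fell in the nup84 null, and 5 fell in the double-null-labelled strain, with medians of -0.40, 0.10 and -0.54. POB3, a subunit gene of the histone chaperone FACT, fell there to -1.25 ± 0.32, SPT6, another histone chaperone gene, to -1.03 ± 0.29 and SPT4 to -0.93 ± 0.22 (adjusted p = 0.0138, 0.0218 and 0.00971). Arrays 1 to 4 of POB3 read -1.48, -0.25, -2.30 and -0.98 there, lower in sample 1, and SPT6 read -1.55 in sample 1 and -0.50 in sample 2.

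Genes for assembly and nuclear import of the polymerases gave 2 lower and 1 higher of 8 in the gcr1-null-labelled strain, 1 higher in the nup84 null, and 2 lower and 1 higher in the double-null-labelled strain, with medians of -0.16, 0.02 and -0.35. GPN2 and GPN3, GTPases of polymerase assembly, were the genes that fell in the double-null-labelled strain, to -0.74 ± 0.21 and -0.87 ± 0.23 (adjusted p = 0.0217 and 0.0167). RTR1, a phosphatase gene of the carboxy-terminal repeat domain, rose there to 0.99 ± 0.23 (adjusted p = 0.00971) and in the gcr1-null-labelled strain to 1.18 ± 0.23 (adjusted p = 0.00482).

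**Figure D4:**
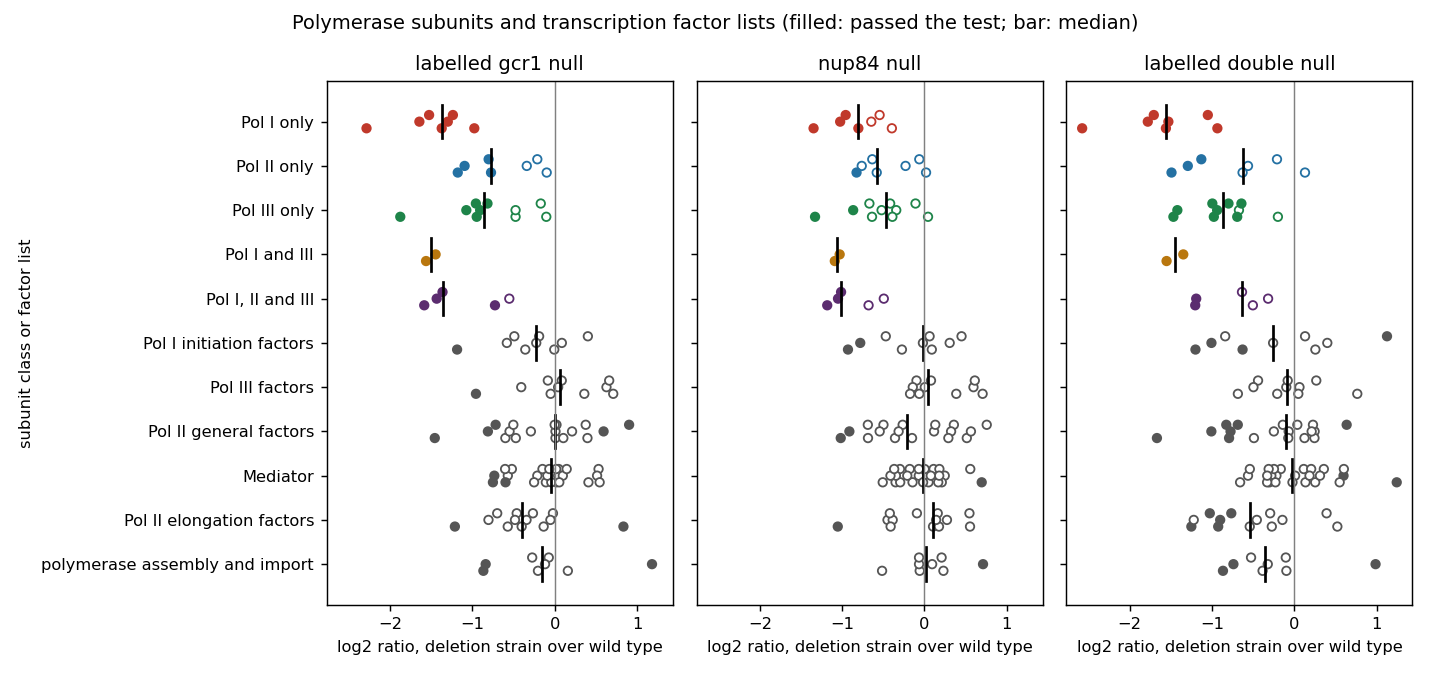
Log2 ratio of deletion strain over wild type (x axis) for the 5 classes of subunit genes and 6 lists of genes that work with the polymerases (y axis) in the 3 strains. Each point is a gene, filled where it passed an adjusted p of 0.05, and black bars are medians. The polymerase I subunits have medians of -1.37, -0.80 and -1.56, and the polymerase III factors have medians of 0.06, 0.04 and -0.09.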

How the data were processed

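Each array's deposited column was taken to hold log2 ratios (Cy5 to Cy3) by probe. RNA was labelled with a linear amplification kit, per the labels. The log base and direction are not written in the table. The range of the values gave the base, and the dyes, per the labels, gave the direction. How the submitters scaled, centred or corrected them has no statement in the sources used here. No channel intensities were used, so dim or saturated spots were not told apart. Of 10807 probes, 9271 had 1 gene name in the platform annotation, 0 had several and 1536 had none, and all 9271 identifiers matched the gene table of assembly R64. Probes of a gene were averaged, which gave 5636 genes.

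Signs of arrays 3 and 4 were turned. Array medians then ran from -0.163 to 0.099, and each array was centred on its median. The design text describes biological replicates with technical dye swaps, so 4 arrays made 2 samples. The swaps are not labelled, so limma 3.58.1 in R 4.3.3 was fitted to pair means under both pairings (1 with 3 and 2 with 4, or 1 with 4 and 2 with 3), on 6 pair means together, leaving 3 residual degrees of freedom. The larger p-value and SE were kept. Over all genes, the SD of the sample difference was 0.497, 0.421 and 0.807 in the first pairing and 0.175, 0.177 and 0.206 in the second (gcr1-null-labelled, nup84 null, double-null-labelled), and the SE pools these spreads. Calls needed an adjusted p (Benjamini-Hochberg, 5636 genes) under 0.05. The code was tested on simulated data.

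Members, lists and tests were chosen with earlier results of these data known. Named genes were all 31 subunits and, per factor list, up to 3 called genes with the largest change in the double-null-labelled strain, besides NUP84 and GCR1. Sequences and promoter motifs were not examined. Length trends were fitted by lowess (fraction 0.3; statsmodels 0.14.6). Alternatives were the pairing, 4 arrays as replicates, centring, scaling, 1 probe per gene, robust eBayes, strains fitted alone, a replicate block, omission of arrays and of the 10% most variable genes, and the length trend.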

Additional observations from a re-analysis of the deposited data

Results flagged for a closer look

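Among 93 groups of 4 arrays (31 subunits in 3 strains), 2 held an array far from the others by Dixon's criterion for 4 values. For independent values chance alone flags about 1 in 20 such groups. The 4 arrays here are dye swaps of 2 samples, so that rate need not hold for them. RPB3 read -1.52 on array 4 of the gcr1-null-labelled strain, against -0.93 to -0.97 on the other arrays. RPC82 read -1.0 on array 2 of the same strain, against -0.28 to -0.32 on the others.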

How the results depend on the processing

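The 4 arrays per strain, their unlabelled pairing and the lack of channel intensities limit these results. Below, the strains go by their labels. Of 31 subunits, 23 (gcr1 null) and 22 (double null) were lower, where 34.8% and 39.5% of all genes were called. Alternatives that keep all arrays gave 23 to 29 and 15 to 30. The 29 and 30 came from arrays paired as 1 with 4 and 2 with 3, where 79.4% and 82.1% of all genes were called. The 15 came from a fit of the double null alone, where 23.8% were called. For the nup84 null the 12 became 27 with arrays paired as 1 with 4 and 2 with 3, 22 with 4 arrays as replicates, 19 after scaling and 21 with the strain fitted alone, where 74.4%, 35.8%, 34.1% and 38.2% of all genes were called, against 16.7%. The second pairing moved 0 to 16 (double null against gcr1 null), 23 (double null against nup84 null), 21 (gcr1 null against nup84 null) and 22 (double null against the sum), where 41.5%, 63.6%, 55.9% and 64.4% of all genes were called. With 4 arrays as replicates, 0 became 3, 1 and 7 in the last 3 comparisons, and scaling gave 9 in the last. The cause was not tested, though the second pairing has the smaller spread between samples.

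Omitting a pair of arrays gave 4 to 29 for gcr1 null, 0 to 27 for nup84 null, 19 to 30 for double null (the 30 being 29 lower and RPO21 higher, without its arrays 2 and 3), and 0 to 16, 0 to 23, 0 to 21 and 0 to 23 for the comparisons in the order above. The moved values were 14 and 4 for gcr1 null, 0, 26 and 27 for nup84 null, 7, 10, 15 and 16 for double null against gcr1 null, 6, 19, 20, 21 and 23 for double null against nup84 null, 1, 15, 17 and 21 for gcr1 null against nup84 null, and 3, 4, 21 and 23 against the sum. Of the called subunits, 4 (RPA49, RPA34, RPC17 and RPC19), 0 and 17 passed under all 12 omissions.

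With the sample number as a replicate block the counts were 23, 15 and 24, where 39.2%, 21.9% and 44.3% of all genes were called. They were 0 in all comparisons between strains. No label says that a number marks a shared day or culture, and under the first pairing the sample differences correlated at -0.005 (gcr1 null and nup84 null), 0.552 (gcr1 null and double null) and 0.099 (nup84 null and double null). The signs that turned belonged to values that did not pass, and the cause was not tested. RPO21 in the nup84 null became -0.025 after scaling and -0.232 after the length correction, which also gave -0.156 for RET1 and 0.038 for RPC37 there. Omitting a strain's own arrays 2 and 4 gave RPO21 0.037 (gcr1 null), -0.419 (nup84 null) and -0.132 (double null), and RPB11 0.228 (double null). RPO21 read -0.046 in the nup84 null without arrays 2 and 3 and -0.112 in the double null without arrays 1 and 4, and RPB2 read 0.117 in the double null without arrays 1 and 3.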
